A study of Homo sapiens with 24 samples.

Results

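Integrin subunits were examined in 2 human hepatocellular carcinoma (HCC) cell lines exposed to TGFβ1, to the inhibitor galunisertib or to both. They are the products of 10 genes, ITGB6, ITGB8, ITGAV, ITGB3, ITGB5, ITGB1, ITGA2, ITGA3, ITGA5 and ITGA6, taken by name from the 22439 genes that could be named on the arrays. Expression was measured on 24 one-colour Agilent arrays, 12 with RNA of PLC/PRF/5 and 12 with RNA of SNU-449, both established lines grown in culture. Each line had 4 groups of 3 independent cultures: untreated controls, recombinant human TGFβ1 at 1 ng/mL, galunisertib (LY2157299, an inhibitor of the TGFβ type I receptor kinase) at 10 µM, and both agents together. Cells of all groups were starved of serum overnight, and the agents were applied for 16 h. Each line stands for 1 tumour, so differences between the lines are differences between 2 cell cultures and not between classes of HCC.

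Integrins are receptors made of 1 α and 1 β subunit that span the plasma membrane and tie the extracellular matrix to the actin cytoskeleton. The αV subunit, encoded by ITGAV, pairs with the β3, β5, β6 and β8 subunits, and αVβ6 and αVβ8 are the integrins best known for releasing active TGFβ from its latent complex by binding the latency-associated peptide. The β1 subunit pairs with many α subunits, among them α2 and α3, which bind collagen and laminin, α5, which binds fibronectin, and α6, which binds laminin and also pairs with the β4 subunit. In the liver, hepatocytes carry few integrins other than those of the β1 class, and αVβ6 is known from bile duct cells and from injured or malignant epithelium.

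A level is given as log2 of the processed signal over the 75th percentile of the signals of its array, so 0 is the 75th percentile and 1 unit is a doubling. Signals below 5.70% of the 75th percentile, a log2 level of -4.13, were set to that floor, and levels at the floor have no order. A probe is called well above background where the scanner software did so. Levels of different genes are not compared, because each probe has its own brightness. A difference was called where limma gave a Benjamini-Hochberg adjusted p below 0.05 over all genes tested in that fit. The share of all genes called in the same comparison is printed with the count of members, and adjusted p-values below are from limma except where the methods' t-test is named.

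The 75th percentile of the arrays ran from 145 to 262 intensity units, and 41.6% to 49.6% of the probes were well above background. Untreated PLC/PRF/5 exceeded SNU-449 in 7 of 7 hepatocyte markers, of which ALB, APOB, TF and HNF4A were not well above background on any untreated SNU-449 array, and in 4 of 5 epithelial markers. In this comparison 68.6% of all 17831 genes tested were called in either direction. KRT8 was taken by its brightest probe, and another KRT8 probe ran the other way. It was at 2.18, 2.04 and 1.92 in PLC/PRF/5 and at 2.43, 2.21 and 2.42 in SNU-449. Untreated SNU-449 was higher in VIM, CDH2, SPARC and COL1A1 and lower in FN1. The only FN1 probe was well above background on 1 of 3 untreated SNU-449 arrays. These markers moved with every difference between the lines given below, and their part in it was not tested. Among genes of the TGFβ response, SMAD7, SKIL and PMEPA1 rose with TGFβ1 in PLC/PRF/5, and SMAD7 and PMEPA1 rose in SNU-449. Each group held the same position on all 3 slides, and the arrays with TGFβ1 lay in another slide row than those without it, so treatment and position on the slide cannot be told apart.

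The members differed in whether they could be measured at all. The probes of ITGAV, ITGB1, ITGB5, ITGA3, ITGA5 and ITGA6 were well above background on all 24 arrays. ITGB6 was well above background on 13 arrays, namely all 12 of SNU-449 and 1 of PLC/PRF/5 with galunisertib. ITGB3 was so on 11 arrays, all of SNU-449, and ITGA2 on 6, of which 3 were SNU-449 with TGFβ1, 1 was SNU-449 with both agents and 2 were PLC/PRF/5 with both agents. ITGB8, the other β subunit known for the release of latent TGFβ, was well above background on 0 of 24 arrays and entered no test. The arrays therefore give no value for ITGB8 in either line, and none for ITGB6, ITGB3 and ITGA2 in tests within PLC/PRF/5.

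**Figure D1:**
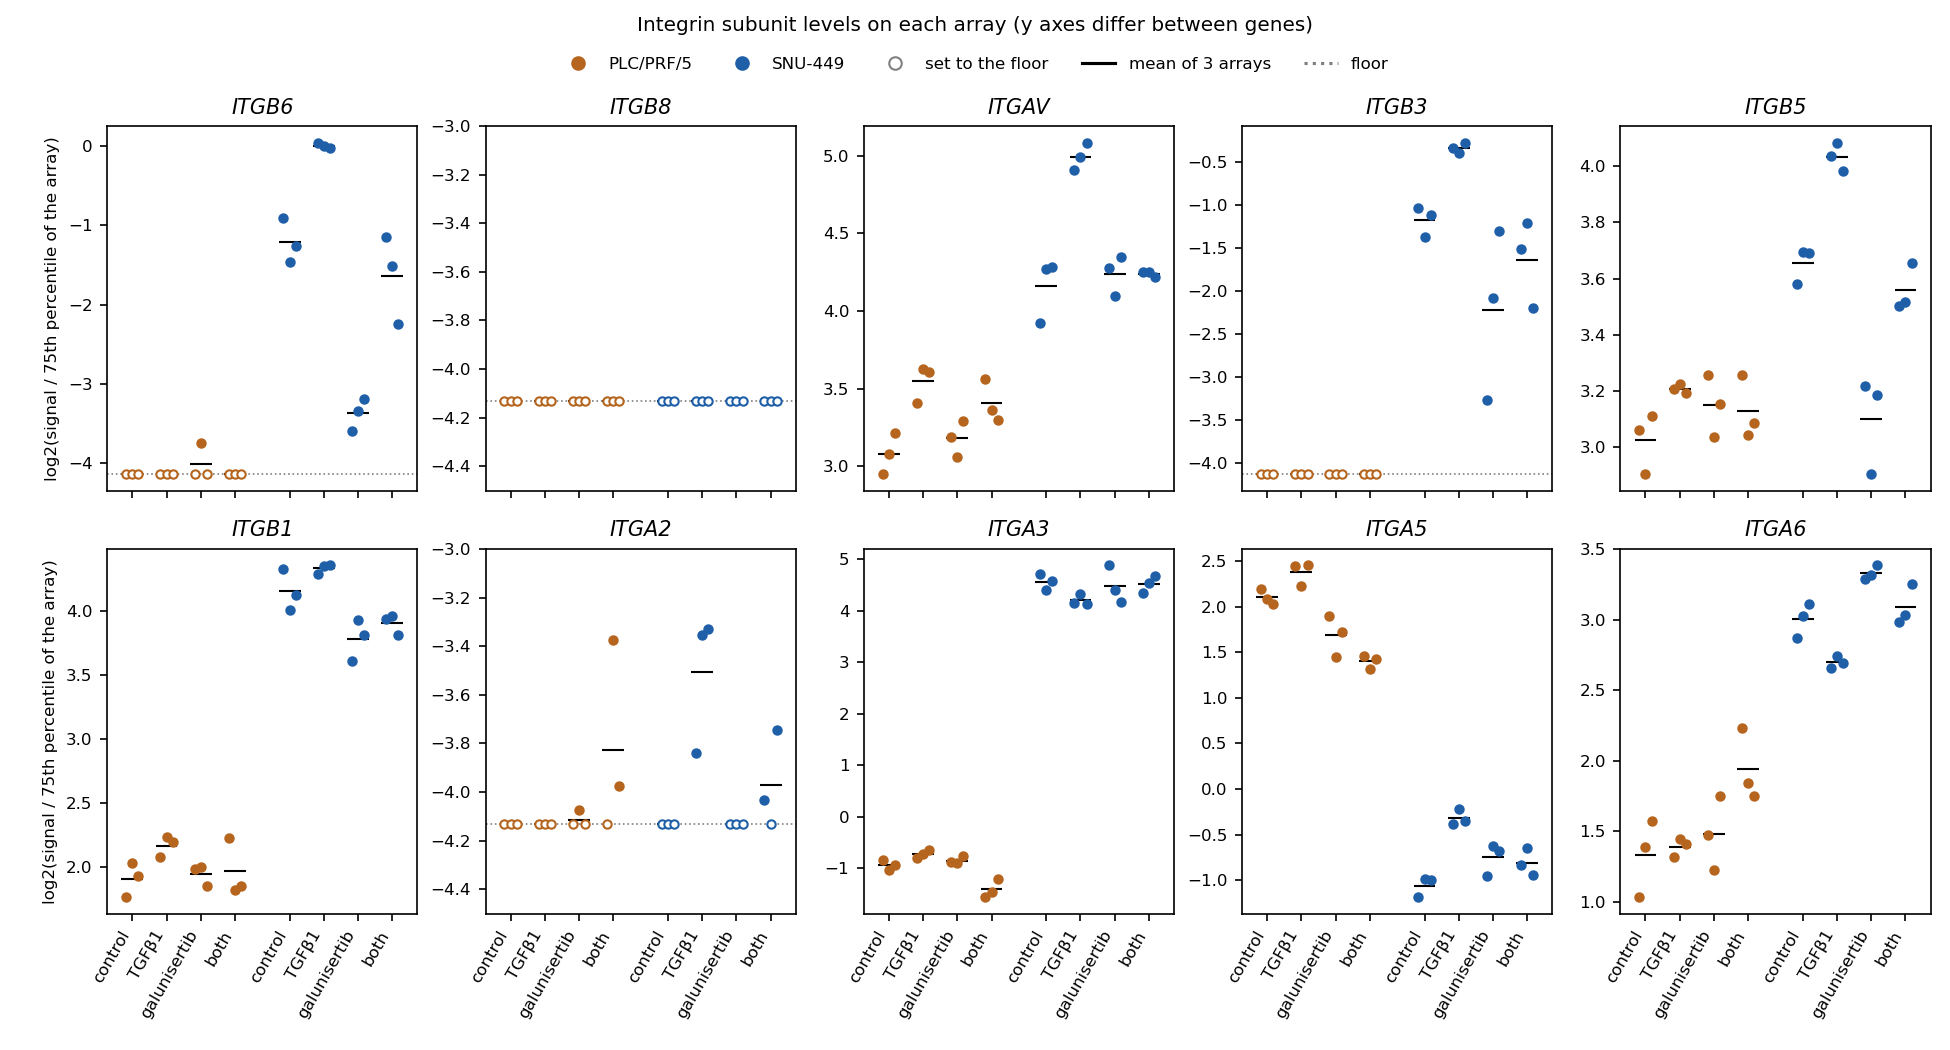
Levels of the 10 integrin subunits on each of the 24 arrays, as log2 of the signal over the array's 75th percentile, with 3 arrays for each of 4 conditions in PLC/PRF/5 (brown) and SNU-449 (blue). Bars are group means, open points were set to the floor of -4.13 (dotted line), and the y axes differ between genes. ITGB6 and ITGB3 lie at or near the floor in PLC/PRF/5 and above it in SNU-449, ITGA5 is higher in PLC/PRF/5, and ITGB8 is at the floor on all arrays.

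The sequences before the start of ITGB6, ITGAV and ITGA5 are shown because these 3 genes had the largest called rises with TGFβ1 in SNU-449 among the members whose probes were well above background in both groups (the ITGB3 estimate of 0.84 was not called). Each is the 250 bases before a RefSeq start in GRCh38.p14, read 5′ to 3′ on the strand of the gene, with capitals marking CAGAC or its reverse complement, the core of the element that SMAD proteins bind. The ITGB6 window lies at chr2:160200273-160200522 on the minus strand, the ITGAV window at chr2:186589806-186590055 on the plus strand, which is the more upstream of 2 listed starts, and the ITGA5 window at chr12:54419267-54419516 on the minus strand.
ITGB6: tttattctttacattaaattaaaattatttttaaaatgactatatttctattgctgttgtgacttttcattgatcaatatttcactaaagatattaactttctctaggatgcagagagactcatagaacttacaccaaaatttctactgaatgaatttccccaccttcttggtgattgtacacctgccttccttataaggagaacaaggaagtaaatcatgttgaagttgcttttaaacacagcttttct
ITGAV: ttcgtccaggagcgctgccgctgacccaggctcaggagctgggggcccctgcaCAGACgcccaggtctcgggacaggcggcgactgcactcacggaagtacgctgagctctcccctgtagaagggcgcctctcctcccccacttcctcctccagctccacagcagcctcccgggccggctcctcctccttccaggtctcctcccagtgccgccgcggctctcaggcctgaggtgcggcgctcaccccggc
ITGA5: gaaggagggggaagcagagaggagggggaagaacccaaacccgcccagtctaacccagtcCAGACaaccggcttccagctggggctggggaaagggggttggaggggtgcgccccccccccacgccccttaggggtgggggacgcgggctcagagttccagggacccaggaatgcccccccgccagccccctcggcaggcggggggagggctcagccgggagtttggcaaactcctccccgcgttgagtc
The ITGB6 window had a GC content of 30%, against 70.8% for ITGAV and 70% for ITGA5 and a median of 58% over all 35116 windows of this length in the table. CAGAC occurred once in the ITGAV window shown and once in the ITGA5 window, starting 197 and 190 bases before the start, and not in the ITGB6 window. The window before the other listed ITGAV start held no CAGAC. Of the 13 windows listed for 8 of the members, 5 held CAGAC on either strand, as did 38% of all windows. TGANTCA, the AP-1 site, was in 0 of the 13 windows and in 6.57% of all, and GGGCGG, the GC box, was in 7 of the 13 and in 42.6% of all, each counted on both strands. ITGB3 and ITGA3 are not in the table. Binding was not measured, and a match of letters is a description only.

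Untreated, the lines differed in 8 of the 9 members tested, and 68.6% of all 17831 genes tested were called in this comparison. ITGA5, the α subunit of the fibronectin receptor, was higher in PLC/PRF/5. ITGA3, ITGB1, ITGA6, ITGAV, ITGB5, ITGB6 and ITGB3 were higher in SNU-449. The median difference of the 9 members, PLC/PRF/5 minus SNU-449, was -1.67 on the log2 scale, against 0.06 for all genes tested. Reading the count and the median of the members needs care because ITGB6 and ITGB3 passed the filter only through SNU-449, the line where they were high. With PLC/PRF/5 at the floor, these genes could not come out lower in SNU-449.

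ITGA3, a laminin receptor subunit, had the widest gap. Its levels in untreated PLC/PRF/5 were -0.84, -1.04 and -0.95 and in untreated SNU-449 4.71, 4.40 and 4.58. The arrays of the lines did not overlap, and the level was 45.4-fold higher in SNU-449 (log2 difference -5.50 ± 0.14 SE, n = 3 arrays a group, adjusted p = 1.08e-17). ITGA5 went the other way, with 2.20, 2.09 and 2.03 in PLC/PRF/5 and 3 levels from -1.18 to -0.99 in SNU-449. This was an 8.95-fold higher level in PLC/PRF/5 (log2 difference 3.16 ± 0.12, adjusted p = 3.46e-15). With normexp background correction the differences were smaller, -4.71 for ITGA3 and 2.48 for ITGA5. Thus α3 and α5, which both pair with β1, were ordered oppositely between the lines.

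ITGB1, the shared β subunit, was at 1.76, 2.03 and 1.93 in PLC/PRF/5 and at 4.33, 4.01 and 4.13 in SNU-449, a 4.75-fold difference (log2 difference -2.25 ± 0.11, adjusted p = 5.38e-13). ITGA6 was 3.17-fold higher in SNU-449 (log2 difference -1.67 ± 0.14, adjusted p = 2.90e-09), and its other probe gave a smaller difference of -0.80 ± 0.09. ITGAV was 2.11-fold higher in SNU-449 (log2 difference -1.08 ± 0.11, adjusted p = 2.90e-08). ITGB5, the β subunit of the vitronectin receptor αVβ5, had the smallest of the called gaps, 1.55-fold (log2 difference -0.63 ± 0.09, adjusted p = 3.45e-06). In each of these 4 genes the 3 SNU-449 arrays lay above the 3 PLC/PRF/5 arrays.

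ITGB6 and ITGB3 are given as bounds, because they were not well above background on any untreated PLC/PRF/5 array. The filter and the floor fixed the direction of their differences in advance, so no p-value is given for them here. ITGB6 stood at -0.91, -1.46 and -1.26 in untreated SNU-449, at least 6.79-fold above the PLC/PRF/5 arrays. ITGB3, whose product pairs with αV to bind vitronectin and fibrinogen, stood at -1.04, -1.38 and -1.12, at least 6.96-fold above. A bound sets each dim array at the weakest signal that was well above background on it. With normexp background correction, which raises dim signals, the fitted differences were only -1.24 for ITGB6 and -1.11 for ITGB3. ITGA2 was at the floor on all 6 untreated arrays, so no difference can be given for it.

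TGFβ1 raised 5 of the 9 members tested in SNU-449, with 0 lower, where 10.3% of all 16059 genes tested were called. They were ITGB6, ITGAV, ITGB5, ITGA5 and ITGA2, thus the αV chain and β chains known to pair with it, the fibronectin receptor chain and a collagen receptor chain. The median difference of the 9 members was 0.62, which is the ITGA2 estimate itself, against 0.02 for all genes. ITGA2 had to differ to be tested, since it passed the filter only through the arrays with TGFβ1. Its controls lay at the floor, so this median depends on where the floor was set.

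ITGB6 moved most. Its levels were -0.91, -1.46 and -1.26 in the controls (mean -1.21 ± 0.28 SD, n = 3) and 0.04, -0.01 and -0.02 with TGFβ1 (mean 0.00 ± 0.03). All 3 arrays with TGFβ1 lay above all controls and close together, while the controls were spread. The rise was 2.32-fold (log2 difference 1.22 ± 0.25 SE, adjusted p = 0.0104), and within the 3 slides it was 0.95, 1.46 and 1.24. The call held when each array was left out in turn, with adjusted p-values between 0.0151 and 0.0425.

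ITGAV, the partner of β6, rose from 3.92, 4.27 and 4.28 to 4.91, 4.99 and 5.08. The groups did not overlap, and the rise was 1.78-fold (log2 difference 0.84 ± 0.11, adjusted p = 0.000998). ITGA5 rose from controls between -1.18 and -0.99 to -0.38, -0.22 and -0.35, which is 1.67-fold (log2 difference 0.74 ± 0.12, adjusted p = 0.00258). ITGB5 changed less, from 3.58, 3.69 and 3.69 to 4.03, 4.08 and 3.98 (log2 difference 0.38 ± 0.10, adjusted p = 0.0347). The ITGB5 call was lost with the slide as a replicate block, at an adjusted p of 0.0578, and when any 1 of the 6 arrays was left out, at adjusted p-values from 0.0681 to 0.128.

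ITGA2 was at the floor on the 3 controls and at -3.84, -3.35 and -3.33 with TGFβ1, at least 1.54-fold higher (adjusted p = 0.0188). These levels stayed close to the limit of measurement, and the call was lost without any 1 of the controls, or without the second or the third array with TGFβ1, at adjusted p-values from 0.0531 to 0.0850. ITGB3 was at -0.34, -0.39 and -0.27 with TGFβ1 against -1.04, -1.38 and -1.12 in the controls. Although its groups did not overlap, the difference of 0.84 ± 0.41 was not called (adjusted p = 0.253). The SE of ITGB3 is estimated over all 4 groups of the line, the widely spread galunisertib arrays among them.

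The laminin receptor chains had estimates on the other side of 0. ITGA3 differed by -0.36 ± 0.17 (adjusted p = 0.230) and ITGA6 by -0.30 ± 0.10 (adjusted p = 0.0743) by its brighter probe. ITGB1 differed by 0.18 ± 0.11 (adjusted p = 0.369), and its arrays overlapped between the groups.

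**Figure D2:**
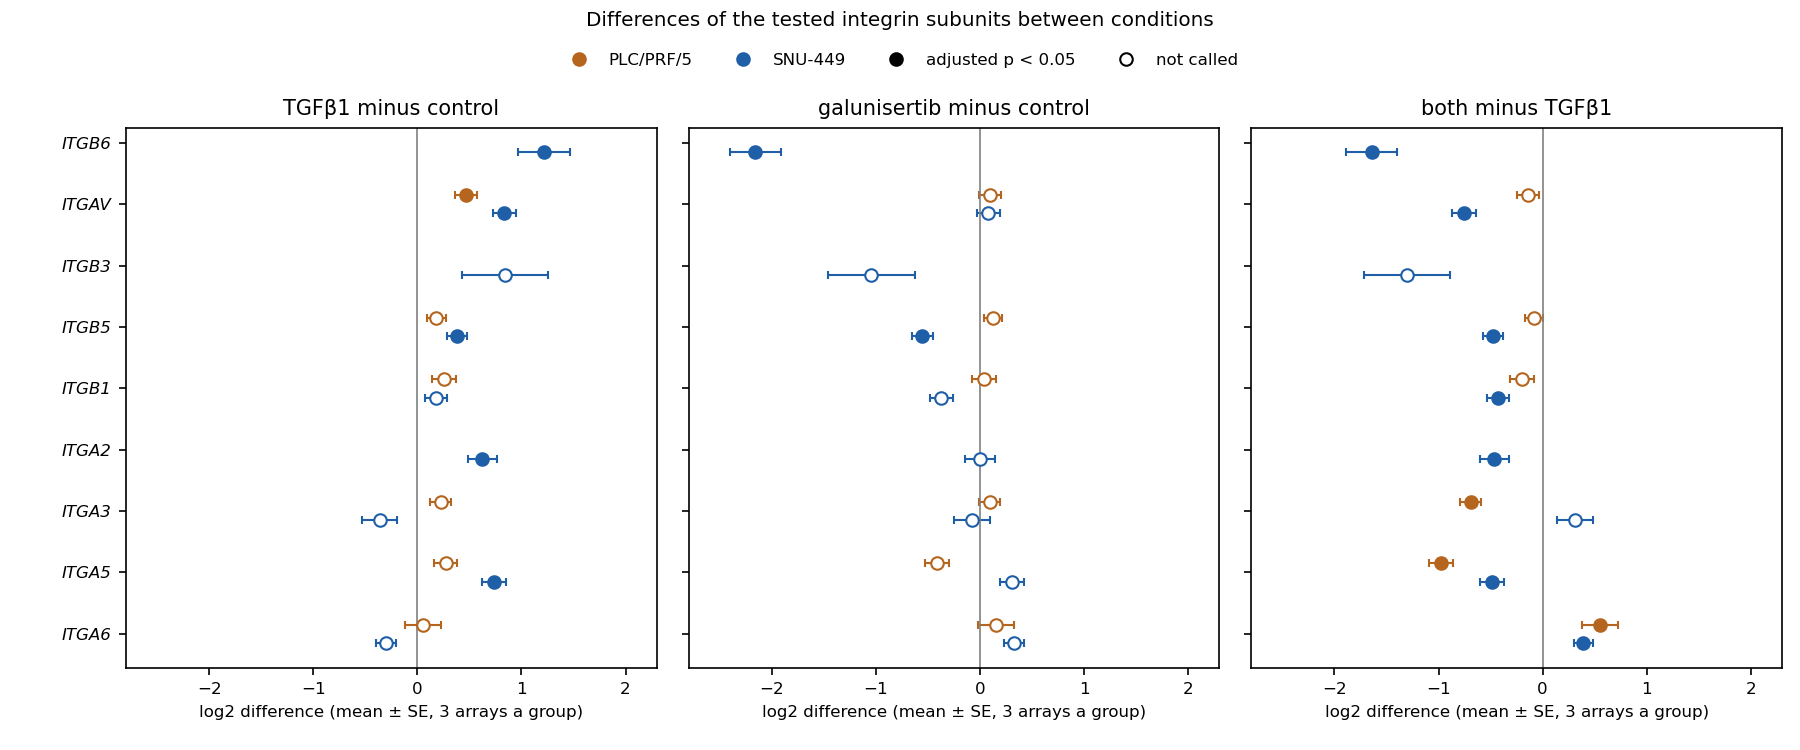
Log2 differences with SE (bars) of the tested integrin subunits in PLC/PRF/5 (brown) and SNU-449 (blue) for TGFβ1 minus control, galunisertib minus control and both agents minus TGFβ1, with 3 arrays in each group. Filled points had an adjusted p below 0.05. ITGB6 lies furthest from 0 in each of the SNU-449 comparisons, at 1.22, -2.16 and -1.64, and ITGA5 in PLC/PRF/5 is lowest with both agents, at -0.97.

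Galunisertib without added TGFβ1 lowered 2 of the 9 members in SNU-449, ITGB6 and ITGB5, and 7.29% of all genes tested were called. The median difference of the members was -0.08, against 0.09 for all genes. ITGB6 fell to -3.58, -3.34 and -3.18, from controls between -1.46 and -0.91. The 3 arrays remained well above background, and the level was 4.46-fold lower (log2 difference -2.16 ± 0.25, adjusted p = 0.000987). The size depends on how the background is handled, since normexp correction gave a log2 difference of -0.78 (adjusted p = 0.00705).

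ITGB5 fell from 3.58, 3.69 and 3.69 to 3.22, 2.91 and 3.18, which is 1.47-fold (log2 difference -0.55 ± 0.10, adjusted p = 0.00977). ITGAV, which rose with TGFβ1, stood at 4.28, 4.09 and 4.35 in galunisertib and overlapped the controls (log2 difference 0.08 ± 0.11, adjusted p = 0.689). Hence β6 and β5 mRNA was lower in SNU-449 cells given galunisertib alone, and a difference in αV mRNA was not found. For ITGB6 the methods' t-test gave an adjusted p of 0.0588, and for ITGB5 5 of 13 other settings ended the call, among them scaling to the array median, at an adjusted p of 0.328.

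ITGB3 spread widely in galunisertib, at -3.27, -2.08 and -1.30, with 2 of the 3 arrays well above background. Its difference of -1.04 ± 0.41 was not called (adjusted p = 0.154). ITGB1 was at 3.61, 3.93 and 3.81 (log2 difference -0.37 ± 0.11, adjusted p = 0.0663) and ITGA5 at -0.95, -0.62 and -0.67 (log2 difference 0.31 ± 0.12, adjusted p = 0.136). In both the arrays did not overlap the controls, but the differences were not called.

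Galunisertib added to TGFβ1 changed 7 of the 9 members in SNU-449, with 6 lower and 1 higher, where 16.9% of all genes tested were called. Lower than with TGFβ1 alone were ITGB6, ITGAV, ITGB5, ITGB1, ITGA5 and ITGA2, and ITGA6 was higher. ITGA2 passed the filter only through the arrays with TGFβ1, where it was high, and 10 of 12 other settings ended its call. Over the members the median was -0.47, against 0.01 for all genes. This comparison and the one of TGFβ1 with the controls share the arrays with TGFβ1 alone, so their opposite signs are not independent of each other.

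ITGB6 stood at -1.15, -1.51 and -2.25 with both agents, against -0.02 to 0.04 with TGFβ1 alone. It was 3.12-fold lower (log2 difference -1.64 ± 0.25, adjusted p = 0.00123), and with normexp correction the difference was -1.04. ITGAV stood at 4.25, 4.25 and 4.22 (log2 difference -0.76 ± 0.11, adjusted p = 0.00115), and ITGB5 at 3.50, 3.52 and 3.66 (log2 difference -0.47 ± 0.10, adjusted p = 0.00775). In these 3 genes no array with both agents reached the lowest array with TGFβ1 alone.

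ITGA5 was lower by the same comparison, at -0.83, -0.65 and -0.94 (log2 difference -0.49 ± 0.12, adjusted p = 0.0161). ITGB1 was at 3.94, 3.96 and 3.81 against 4.29, 4.35 and 4.36 (log2 difference -0.43 ± 0.11, adjusted p = 0.0216). ITGA6 was at 2.99, 3.04 and 3.25 against 2.66, 2.74 and 2.69 (log2 difference 0.39 ± 0.10, adjusted p = 0.0179). The ITGB1 call was lost without the second or the third array with TGFβ1 or the third with both agents (adjusted p = 0.0748, 0.0729 and 0.0750), that of ITGA6 without the first or the third with TGFβ1 or the third with both (0.0616, 0.0585 and 0.0621), and that of ITGA5 without the second with TGFβ1 or the third with both (0.0715 and 0.0605). With array median scaling the calls of ITGB5, ITGB1 and ITGA6 were lost as well (adjusted p = 0.0797, 0.0602 and 0.544).

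ITGA2, at or near the floor with both agents, had an adjusted p of 0.0496 that became 0.0529 with the replicate block, and leaving out the second or the third array with TGFβ1 or the first or the second with both agents gave 0.126 to 0.175. ITGB3 was at -1.51, -1.21 and -2.20 and, although it did not overlap the arrays with TGFβ1, was not called (log2 difference -1.30 ± 0.41, adjusted p = 0.0567). ITGA3 differed by 0.31 ± 0.17 (adjusted p = 0.258).

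Whether TGFβ1 still made a difference in SNU-449 cells already given galunisertib was asked by comparing both agents with galunisertib alone. Of the 9 members 2 were higher, ITGB6 and ITGB5, and 1.86% of all genes tested were called. The median difference of the members was 0.12, against -0.05 for all genes. ITGB6 went from -3.58, -3.34 and -3.18 to -1.15, -1.51 and -2.25, a 3.32-fold rise (log2 difference 1.73 ± 0.25, adjusted p = 0.00862). The order of its 4 conditions in SNU-449 was thus TGFβ1, control, both agents and galunisertib, and only the control and the group with both agents overlapped, which were not compared by a test.

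The ITGB6 rise in galunisertib was not called by the methods' t-test (adjusted p = 0.264), and with only the 2 groups in the fit its adjusted p was 0.151. With normexp correction the ITGB6 difference was 0.69 (adjusted p = 0.0209). ITGB5 rose from 3.22, 2.91 and 3.18 to 3.50, 3.52 and 3.66 (log2 difference 0.46 ± 0.10, adjusted p = 0.0468), a call lost with the replicate block (adjusted p = 0.0839) and without any 1 of the 6 arrays, at adjusted p-values from 0.0519 to 0.105. ITGAV was at 4.28, 4.09 and 4.35 before and at 4.25, 4.25 and 4.22 after (log2 difference 0.00 ± 0.11, adjusted p = 1.00). ITGA5 likewise overlapped between the groups (log2 difference -0.06 ± 0.12, adjusted p = 0.837).

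The difference between these responses was tested directly as an interaction, and 2 of the 9 members were called, where 2.57% of all genes tested were. The median interaction of the members was -0.06, against -0.07 for all genes. The difference made by TGFβ1 was smaller in galunisertib than without it by 0.84 ± 0.16 for ITGAV on the log2 scale (interaction -0.84, adjusted p = 0.0241) and by 0.79 ± 0.16 for ITGA5 (interaction -0.79, adjusted p = 0.0347). For ITGB6 the estimate was 0.52 ± 0.35, which was not called (adjusted p = 0.467) and turned to -0.26 with normexp correction (adjusted p = 0.532), and for ITGB5 it was 0.08 ± 0.14 (adjusted p = 0.803). So ITGAV and ITGA5 rose less with TGFβ1 in the presence of galunisertib, while for the β6 and β5 chains a difference was neither called nor shown to be absent.

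The interaction calls were narrow. That of ITGAV was lost without any 1 of 6 of the 12 arrays, at adjusted p-values up to 0.0733, and that of ITGA5 without any 1 of 10, at up to 0.105. With array median scaling the interaction was -1.06 for ITGAV (adjusted p = 0.151) and -1.01 for ITGA5 (adjusted p = 0.0504).

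**Figure D3:**
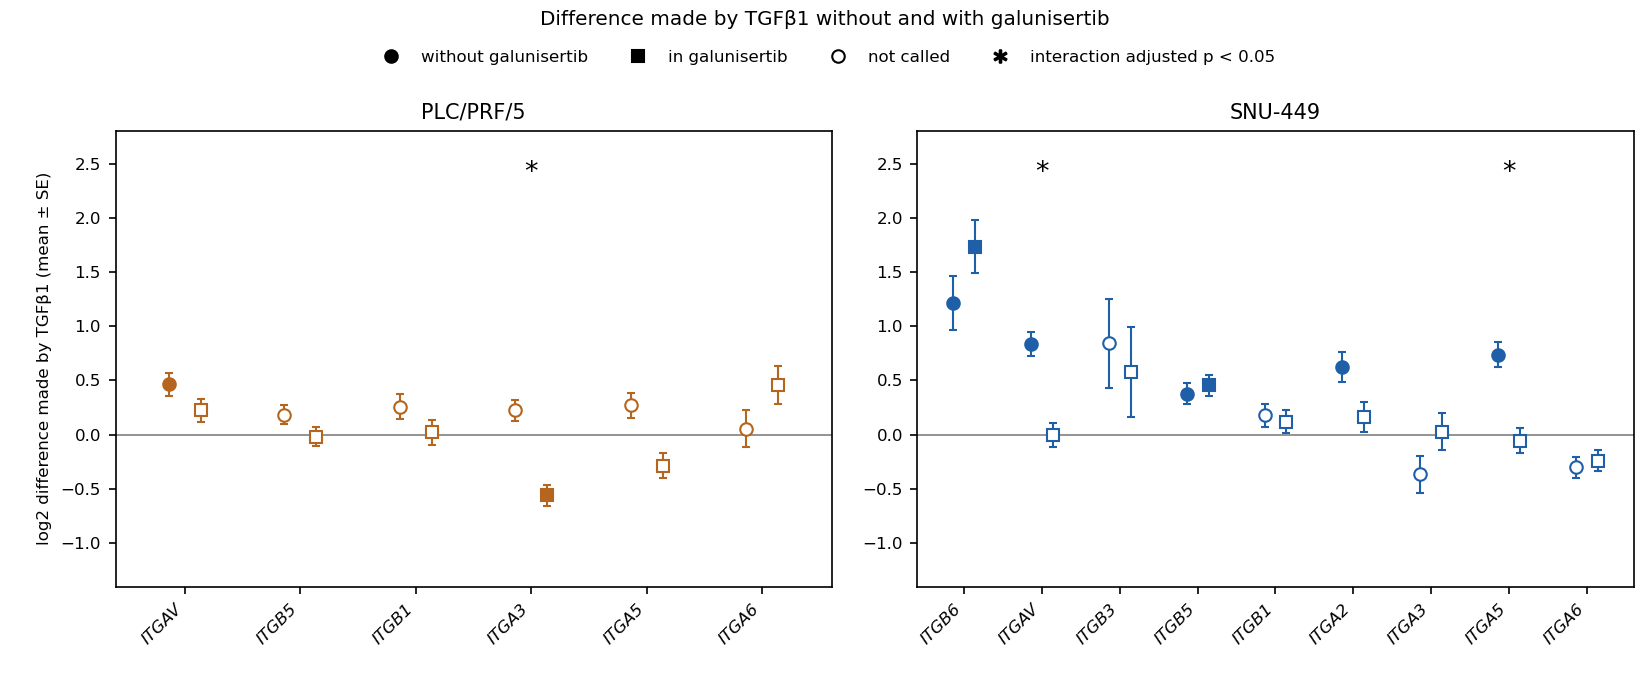
Log2 difference made by TGFβ1 without galunisertib (circles) and in galunisertib (squares) for each tested member, with SE as bars and 3 arrays in each group. Filled symbols had an adjusted p below 0.05, and an asterisk marks a difference between the circle and the square with an adjusted p below 0.05. In SNU-449 the ITGAV value goes from 0.84 to 0.00, while that of ITGB6 goes from 1.22 to 1.73. In PLC/PRF/5 ITGA3 goes from 0.22 to -0.56.

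In PLC/PRF/5, where 6 members could be tested, TGFβ1 raised 1, ITGAV, and 13.6% of all 16654 genes tested were called. The 6 had a median difference of 0.24, against -0.03 for all genes. ITGAV was at 2.95, 3.08 and 3.21 in the controls and at 3.41, 3.63 and 3.61 with TGFβ1. The groups did not overlap, and the rise was 1.38-fold (log2 difference 0.47 ± 0.11, adjusted p = 0.0160). The call was lost without the first or the second control or without the second or the third array with TGFβ1 (adjusted p = 0.0557, 0.0504, 0.0603 and 0.0670), and with array median scaling (adjusted p = 0.285).

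The other 5 members had estimates from 0.05 to 0.27 that were not called. ITGA5 differed by 0.27 ± 0.12 (adjusted p = 0.156), ITGB1 by 0.26 ± 0.12 (adjusted p = 0.180), ITGA3 by 0.22 ± 0.10 (adjusted p = 0.176) and ITGB5 by 0.18 ± 0.09 (adjusted p = 0.209). In each of these 4 the 3 arrays with TGFβ1 lay above the 3 controls. How often this held over all genes was not counted, so no rise of these members is read from it. ITGB6 and ITGB3 were at the floor on all 6 arrays, so no response of β6 or β3 could be seen in this line.

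Galunisertib alone called 0 of the 6 members in PLC/PRF/5, where limma called 5.41% of all genes. At an unadjusted p below 0.05 there was 1, ITGA5, and the methods' t-test called 0. ITGA5 was at 1.90, 1.45 and 1.72 in galunisertib against 2.20, 2.09 and 2.03 in the controls (log2 difference -0.42 ± 0.12, adjusted p = 0.0631). The arrays did not overlap. The second ITGA6 probe, described below, rose in this comparison.

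Galunisertib added to TGFβ1 changed 3 of the 6 members in PLC/PRF/5, with ITGA5 and ITGA3 lower and ITGA6 higher, and 39.1% of all genes tested were called. Over the members the median was -0.17, against 0.06 for all genes. ITGA5 was at 1.46, 1.32 and 1.43 with both agents against 2.45, 2.23 and 2.45 with TGFβ1 alone, 1.96-fold lower (log2 difference -0.97 ± 0.12, adjusted p = 0.000129). ITGA3 was at -1.56, -1.47 and -1.21 against -0.80, -0.72 and -0.64, 1.62-fold lower (log2 difference -0.69 ± 0.10, adjusted p = 0.000444). In both genes the groups did not overlap and the difference was negative on each slide, from -1.02 to -0.91 for ITGA5 and from -0.76 to -0.57 for ITGA3. With array median scaling the ITGA3 difference was not called (adjusted p = 0.0605).

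ITGA6 was at 2.23, 1.84 and 1.75 with both agents against 1.32, 1.44 and 1.41 (log2 difference 0.55 ± 0.17, adjusted p = 0.0267). Its call was lost without any 1 of the arrays with TGFβ1 or the first with both agents, at adjusted p-values from 0.0531 to 0.106. ITGAV was at 3.57, 3.36 and 3.30 and overlapped the arrays with TGFβ1 alone (log2 difference -0.14 ± 0.11, adjusted p = 0.338). ITGB1 and ITGB5 were not called either.

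TGFβ1 lowered, in PLC/PRF/5 cells given galunisertib, 1 of the 6 members, ITGA3, and 8.52% of all genes tested were called. All 6 had a median of 0.00, against 0.02 for all genes. ITGA3 fell from -0.88, -0.90 and -0.77 to -1.56, -1.47 and -1.21, which is 1.47-fold (log2 difference -0.56 ± 0.10, adjusted p = 0.0155). The ITGA3 call was lost in 6 of 13 other settings, among them array median scaling (log2 difference -0.45, adjusted p = 0.310).

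The interaction in PLC/PRF/5 was called for 1 of the 6 members, ITGA3, where 8.86% of all genes were called. The median interaction of the members was -0.24, against 0.05 for all genes. The difference made by TGFβ1 in ITGA3 went from 0.22 ± 0.10 without galunisertib to -0.56 ± 0.10 in it (interaction -0.78 ± 0.14, adjusted p = 0.00968), and every single array could be left out with adjusted p-values up to 0.0318. Array median scaling gave -0.70 (adjusted p = 0.359). For ITGA5 the interaction of -0.56 ± 0.16 was not called (adjusted p = 0.0596).

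The responses of the lines were compared with each other over all 24 arrays. The difference made by TGFβ1 in SNU-449 minus that in PLC/PRF/5 was called for 1 of the 9 members, ITGB6, and 8.64% of all 17831 genes were called. The ITGB6 value of 1.22 ± 0.27 (adjusted p = 0.00659) equals the rise in SNU-449, because the gene lay at the floor in PLC/PRF/5, where a change below the floor would not be seen. It restates the SNU-449 rise and is no measure of a response in PLC/PRF/5. With the floor at 50% of its value the adjusted p was 0.0785, and with the authors' normalized values it was 0.205. The median over the members was 0.37, against 0.05 for all genes. ITGAV, called in both lines, had a difference between them that was not called (0.37 ± 0.15, adjusted p = 0.160). ITGA3, with 0.22 in PLC/PRF/5 and -0.36 in SNU-449, had a difference of -0.59 ± 0.20 (adjusted p = 0.0806).

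The difference made by galunisertib was called as unequal between the lines for 3 of the 9 members, and 5.90% of all genes were called. The median over the members was -0.17, against 0.03 for all genes. ITGB6 again rests on PLC/PRF/5 arrays at or near the floor (difference -2.29 ± 0.27, adjusted p = 3.55e-05), and the authors' normalized values gave an adjusted p of 0.0536 and normexp correction a difference of -0.93. ITGB5 was lower with galunisertib in SNU-449 by 0.55 and in PLC/PRF/5 had an estimate of 0.12 ± 0.09, a difference of -0.68 ± 0.13 (adjusted p = 0.00271). ITGA5 had estimates of 0.31 in SNU-449 and -0.42 in PLC/PRF/5, neither called alone, and these differed by 0.72 ± 0.16 (adjusted p = 0.0108). The ITGB5 and ITGA5 calls held with each array left out in turn and were lost with array median scaling, at adjusted p-values of 0.345 and 0.314.

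ITGA6, the α subunit that pairs with β1 and β4, is measured by 2 probes, and they disagreed in several calls. By the probe A_33_P3231447 the levels in SNU-449 were 2.42, 2.04 and 2.12 in the controls and 1.35, 1.51 and 1.52 with TGFβ1. This was a called fall in a fit of all probes (log2 difference -0.73 ± 0.11, adjusted p = 0.00260), where the brighter probe, A_23_P210176, gave -0.30 ± 0.10 (adjusted p = 0.0820). With galunisertib the same probe rose to 2.82, 3.04 and 3.03 (log2 difference 0.77 ± 0.11, adjusted p = 0.00413), against 0.33 ± 0.10 by the brighter one (adjusted p = 0.0743).

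Both ITGA6 probes were higher with both agents than with TGFβ1 alone in SNU-449, by 1.08 ± 0.11 and by 0.39 ± 0.10 (adjusted p = 0.000132 and 0.0203). In PLC/PRF/5 the second probe rose with galunisertib from 1.36, 1.39 and 1.41 to 1.65, 1.69 and 1.76 (log2 difference 0.31 ± 0.07, adjusted p = 0.0400), and the brighter one had 0.15 ± 0.17 (adjusted p = 0.656). With galunisertib added to TGFβ1 in that line the second probe gave 0.16 ± 0.07 (adjusted p = 0.101) and the brighter one 0.55. Both probes are annotated to the same RefSeq transcript, and which transcripts each one detects was not settled.

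The second probe also gave called differences between the lines. The value for TGFβ1, SNU-449 minus PLC/PRF/5, was -0.64 ± 0.13 (adjusted p = 0.00312) and that for galunisertib 0.46 ± 0.13 (adjusted p = 0.0431). By the brighter probe neither was called. In SNU-449 both ITGA6 probes had the sign opposite to that of ITGB6 with TGFβ1, with galunisertib and with both agents against TGFβ1, and for each agent alone only the second probe passed the test.

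**Figure D4:**
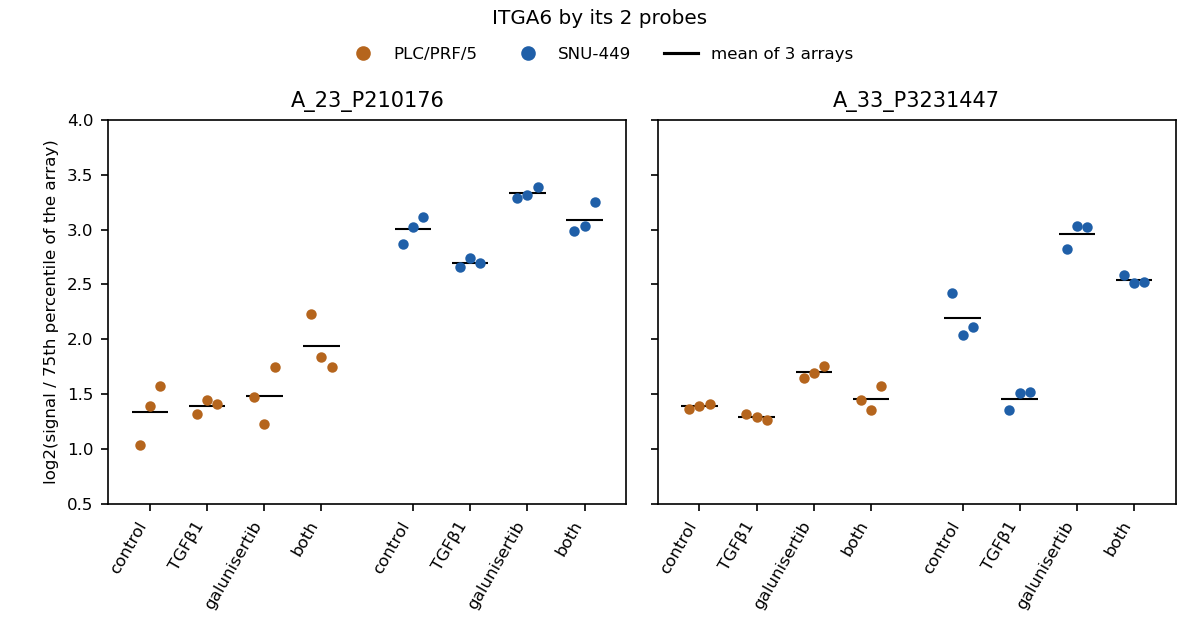
Levels of ITGA6 by its 2 probes, as log2 of the signal over the array's 75th percentile, on 3 arrays for each condition in PLC/PRF/5 (brown) and SNU-449 (blue), with bars at the group means. In SNU-449 the second probe runs from a mean of 1.46 with TGFβ1 to 2.96 with galunisertib, and the first from 2.70 to 3.33.

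The genes whose levels ran most like those of ITGB6 over the 12 arrays of SNU-449, among 16058 other genes, were FOXS1, KLF7, NRP2, EPHB2 and RGS9, with Pearson correlations from 0.982 to 0.987. The arrays share 4 treatments, so any gene with the same order of conditions correlates, and no test is given.

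Of 16 other integrin subunits, 10 could be tested within SNU-449. TGFβ1 raised ITGA1, a collagen receptor chain (log2 difference 1.34 ± 0.15, adjusted p = 0.0003), and lowered ITGA10, another collagen receptor chain (log2 difference -1.95 ± 0.21, adjusted p = 0.0003), with 8 not called, a median of -0.09 and 10.3% of all genes called. ITGA10 fell from a mean level of 0.53 to -1.43 and was at 1.62 with galunisertib and 1.22 with both agents. Both minus TGFβ1 alone was 2.65 ± 0.21 for ITGA10 and -1.10 ± 0.15 for ITGA1. In PLC/PRF/5 ITGA10 also fell with TGFβ1 (log2 difference -0.69 ± 0.12) and rose with galunisertib (0.93 ± 0.12), where 3 and 2 of the 10 testable other subunits were called, against 13.6% and 5.41% of all genes.

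ITGB4, the partner of ITGA6 in the laminin receptor α6β4, rose with galunisertib in SNU-449 from a mean level of 6.35 to 7.09 (log2 difference 0.74 ± 0.12, adjusted p = 0.0061) and in PLC/PRF/5 (log2 difference 0.43 ± 0.09, adjusted p = 0.0280). It was higher with both agents than with TGFβ1 alone in SNU-449 (log2 difference 0.89 ± 0.12), as was ITGA6. TGFβ1 alone also raised ITGB4 in PLC/PRF/5, from a mean of 1.64 to 2.16 (log2 difference 0.52 ± 0.09, adjusted p = 0.00485), while both agents minus TGFβ1 was -0.07 ± 0.09 there (adjusted p = 0.578). In SNU-449 the TGFβ1 estimate for ITGB4 was -0.37 ± 0.12 (adjusted p = 0.0803). Untreated, 8 of 12 other subunits differed between the lines, near the 68.6% of all genes, with ITGB4 lower in PLC/PRF/5 by 4.71 ± 0.10 on the log2 scale.

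Among 20 genes of the adhesion machinery that links integrins to actin, 18 were tested in SNU-449. TGFβ1 raised TLN2, ILK and ZYX and lowered FERMT1, a kindlin of epithelial cells (log2 difference -0.62 ± 0.11, adjusted p = 0.0047), with a median of 0.29, where 10.3% of all genes were called. With galunisertib ZYX fell in SNU-449 by 0.57 ± 0.09, and in PLC/PRF/5 it rose (log2 difference 0.45 ± 0.11, adjusted p = 0.0401). TGFβ1 called 5 of 18 in PLC/PRF/5, against 13.6% of all genes, among them FERMT1, which fell (log2 difference -0.66 ± 0.10), and TNS1, a tensin that binds β subunit tails, which rose (log2 difference 1.51 ± 0.14).

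Of 18 ligands of integrins and carriers of latent TGFβ, 6 rose and 0 fell with TGFβ1 in SNU-449, where 10.3% of all genes were called, with COL4A1 (log2 difference 1.45 ± 0.13) and TGFB1 itself (1.38 ± 0.35, adjusted p = 0.0313) among them. Galunisertib alone lowered 3 of the 18 and raised 1 in SNU-449, where 7.29% of all genes were called. COL1A1 fell from a mean level of 6.69 to 4.08 (log2 difference -2.61 ± 0.25, adjusted p = 0.00042), and TNC, the matrix protein tenascin C, was the 1 that rose. TGFB1 was lower with galunisertib alone by 1.84 ± 0.35 (adjusted p = 0.0130) and LTBP3, which binds latent TGFβ to the matrix, by 0.65 ± 0.09 (adjusted p = 0.0030). Of the 14 testable in PLC/PRF/5, 5 rose with TGFβ1, against 13.6% of all genes, with SPP1, the αV ligand osteopontin, first in size (log2 difference 2.33 ± 0.15), followed by TGFB1 (0.74 ± 0.15). The TGFB1 probe reads the cells' own transcript and not the added protein.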

How the data were processed

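RNA of 24 cell cultures was hybridised to one-colour Agilent arrays, and per the file headers the deposited intensity of each spot is the processed signal of Agilent Feature Extraction 10.7.3.1, background-subtracted by that software and not scaled between arrays. A second file deposited by the authors holds log2 values, which matched the scaled scanner values in their differences between arrays (r = 0.999983 over 19267 probes) and was centred on the median of each probe, and it served as an alternative. Control spots and spots with outlier marks (111 to 216 an array) were left out, and 0 spots were saturated. Probes were named through their accession in RefSeq, which covered 31104 of 58201 probes, and the brightest probe stood for a gene.

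Signals were divided by the 75th percentile of their array, floored at 5.70% of it, log2-transformed and kept where 1 group or more had the probe well above background on each of its arrays. limma 3.58.1 in R 4.3.3 fitted the 12 arrays of a line, or all 24 for differences between the lines, with Benjamini-Hochberg adjustment over all genes, and the procedure was tested on simulated data. No count depth exists for arrays, and 3 arrays a group limit the precision. The 10 members and the gene lists were chosen with earlier results of these data known. Beyond the members, genes were named where they belonged to a list and were called, or ran most like ITGB6.

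Replicate numbers are slide numbers. Same-numbered arrays deviated together in TGFβ1 against control in PLC/PRF/5 (r from 0.170 to 0.300), and in SNU-449 in TGFβ1 against control (0.129 to 0.226) and both agents against TGFβ1 (0.102 to 0.267), and not by this measure elsewhere. Alternatives covered scaling, background correction, floor, filter, probe choice, the authors' values and the groups in the fit. They also covered the plain t-test, the study's limits, the slide as a block and each array left out. Background correction was normexp on the median signal, since no mean signal was in the tables.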

Additional observations from a re-analysis of the deposited data

Results flagged for a closer look

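The galunisertib response, SNU-449 minus PLC/PRF/5, differed between the lines by a test of the difference itself in limma, by -0.68 on the log2 scale for ITGB5 and by 0.72 for ITGA5. The same test called ITGB6 at 1.22 for TGFβ1 and -2.29 for galunisertib, but ITGB6 lay at or near the floor in PLC/PRF/5, so these values restate the change in SNU-449 and do not measure a difference between responses. Groups of 3 arrays are too small for the test of single outlying arrays, which was not run.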

How the results depend on the processing

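Of 36 called differences of integrin subunits, 0 changed sign in 455 values under the planned settings other than leaving out an array, and 89 of these values were no longer called. Of 258 values with 1 array left out 53 were no longer called and 0 changed sign. Among differences that were not called, 35 of 749 values had the other sign. The causes were not tested.

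Scaling to the array median called 0 members for TGFβ1 in PLC/PRF/5, for TGFβ1 in galunisertib in PLC/PRF/5 and for both interactions, 1 for galunisertib in SNU-449, for TGFβ1 in galunisertib in SNU-449 and for the galunisertib difference between the lines, and 4 for galunisertib added to TGFβ1 in SNU-449. No scaling gave the same counts, except 1 for galunisertib added to TGFβ1 in PLC/PRF/5 and no such change for it in SNU-449. Taking the percentile only over probes that were well above background everywhere gave 1 for galunisertib and 5 for galunisertib added to TGFβ1 in PLC/PRF/5, 2 and 1 for the interactions in PLC/PRF/5 and SNU-449, and 2 for the TGFβ1 difference between the lines. Normexp gave 2 for TGFβ1 in PLC/PRF/5, 5 for galunisertib in SNU-449, 1 for the interaction in SNU-449 and 2 for the TGFβ1 line difference. The TGFβ1 line difference had 2 with the mean of all probes, 5 with only its groups in the fit and 0 with the lower floor, the filter on all arrays or the authors' values. The filter on all arrays and the fit of all 24 arrays gave 2 for the interaction in PLC/PRF/5. No filter gave 1 for TGFβ1 in galunisertib and for the interaction in SNU-449, and the authors' values gave 1 for the former. Fits of only the compared groups gave 0 for TGFβ1 in galunisertib in either line and 1 for galunisertib in SNU-449. The plain t-test gave 0 for TGFβ1 in PLC/PRF/5, for galunisertib in SNU-449 and for TGFβ1 in galunisertib in either line. A fold above 2 with an unadjusted p below 0.001 gave 0 for the 4 PLC/PRF/5 comparisons that had calls and for the interaction in SNU-449, and 1 for the 4 treatment comparisons in SNU-449 and for the galunisertib line difference.

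With the replicate block the counts were 1 for galunisertib and 2 for the interaction in PLC/PRF/5 and 1 for TGFβ1 in galunisertib in SNU-449, and the block changed no other count by over 1.5 times. With 1 array left out, the members called ranged from 8 to 8 between the untreated lines, 0 to 1 for TGFβ1, 0 to 1 for galunisertib, 2 to 4 for galunisertib added to TGFβ1, 1 to 1 for TGFβ1 in galunisertib and 1 to 2 for the interaction in PLC/PRF/5. In SNU-449 they ranged from 3 to 4, 2 to 3, 4 to 6, 1 to 1 and 0 to 1 in the same order, and between the lines from 1 to 2 for TGFβ1 and 3 to 4 for galunisertib.

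Array median scaling moved the median of all genes between the untreated lines from 0.06 to -0.28 and the share of calls higher in PLC/PRF/5 from 49.5% to 33.1%. It moved the share of calls that were higher from 46.8% to 67.1% for TGFβ1 in PLC/PRF/5, from 54.5% to 71.3% for TGFβ1 in SNU-449, from 72.0% to 48.5% for galunisertib in SNU-449, from 66.1% to 82.8% and from 56.7% to 32.1% for galunisertib added to TGFβ1 in PLC/PRF/5 and SNU-449. Signals near background limit ITGB6 and ITGB3 in PLC/PRF/5, ITGA2 in both lines and ITGB8 on all arrays.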
